A study of Sus scrofa domesticus with 6 samples.

Results

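Notch signalling is a pathway between touching cells. Ligands of the Delta-like (DLL) and Jagged (JAG) families on one cell bind NOTCH receptors on the next, proteases cut the receptor, and its freed intracellular part joins the DNA-binding protein RBPJ to switch on target genes such as HES1 and HEY1. In the mouse intestine, Delta-like ligands on secretory cells act on NOTCH1 and NOTCH2 of crypt progenitors, where HES1 represses ATOH1, the factor that commits cells to secretory fates. In vessels, DLL4, JAG1 and NOTCH4 are known from endothelium and NOTCH3 from the mural cells around it.

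The genes described here are 4 Notch ligands (DLL1, DLL4, JAG1 and JAG2), the 4 receptors NOTCH1 to NOTCH4 and the targets HES1 and HEY1. They were taken by gene symbol from the table of gene counts, in which all 10 have a row, and all 10 were among the 18197 genes tested of 30352 with a name. The table holds RNA sequencing of small intestine from 6 wild-type Gottingen minipigs aged 6 months, 1 library per animal. The IR_Pra group (2 animals) received 15 Gy to the abdomen from a cobalt gamma source and oral pravastatin, an inhibitor of cholesterol synthesis, at 40 mg per day for 2 weeks. The IR group (2 animals) received the same abdominal dose without pravastatin, and the control group (2 animals) is given as control with no other treatment in its label. Tissue was taken on day 14, so the data hold 1 time point, and the labels do not name the segment of small intestine.

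Library totals ranged from 48600424 to 73975174 reads in genes. Library IR 2 stood apart: its 6 detected markers of small intestinal tissue summed to 782.6 CPM (a gene's share of the library's counts on a common scale, adjusted by TMM), against 12360 to 33130 CPM in the other 5 libraries, and its 10 epithelial markers summed to 1562 CPM, against 7038 to 8701 CPM. Transcript lengths were not measured, and a gene's length here is the one implied by its counts and FPKM. By this length, with all genes split into 10 equal classes, library IR 1 stood apart. Its longest class had a median log2 ratio of -0.71 to the control mean and its shortest class 0.62. IR 2 had -0.16 and 0.03. Both IR libraries therefore appear with and without each other beside the results below. A fit without 1 of them holds 1 IR animal. Its p-values carry no spread between IR animals, so only its log2 fold changes are read. Tissue pieces of different makeup were sequenced in bulk, so a change in the number of cells that carry a transcript and a change in transcript per cell cannot be told apart.

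By FPKM, which divides by transcript length, HES1 had the highest mean of the 10 in every group. It averaged 22.1 ± 2.47 in IR_Pra, 16.5 ± 0.935 in IR and 17.3 ± 4.74 in control (SD, n = 2 each). In library IR 2, NOTCH1 at 17.2 FPKM lay above HES1 at 15.8 FPKM. HEY1 had the lowest mean in every group, at 1.0 ± 0.135, 1.31 ± 0.372 and 1.25 ± 0.509 FPKM in IR_Pra, IR and control (SD, n = 2 each). NOTCH1 was the highest receptor in each group's mean. In control the order below HES1 was NOTCH1, JAG1, NOTCH2 and DLL4, each apart from the next by more than their SDs combined. Below DLL4 came DLL1, NOTCH3 and NOTCH4, with no step between neighbours beyond their SDs, and then JAG2 and HEY1, which did not differ beyond theirs. In IR, JAG2 (6.33 ± 0.688 FPKM) stood above JAG1 (3.61 ± 0.847 FPKM; SD, n = 2 each), and the step down to HEY1 was the 1 step in the order that exceeded the SDs.

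**Figure D1:**
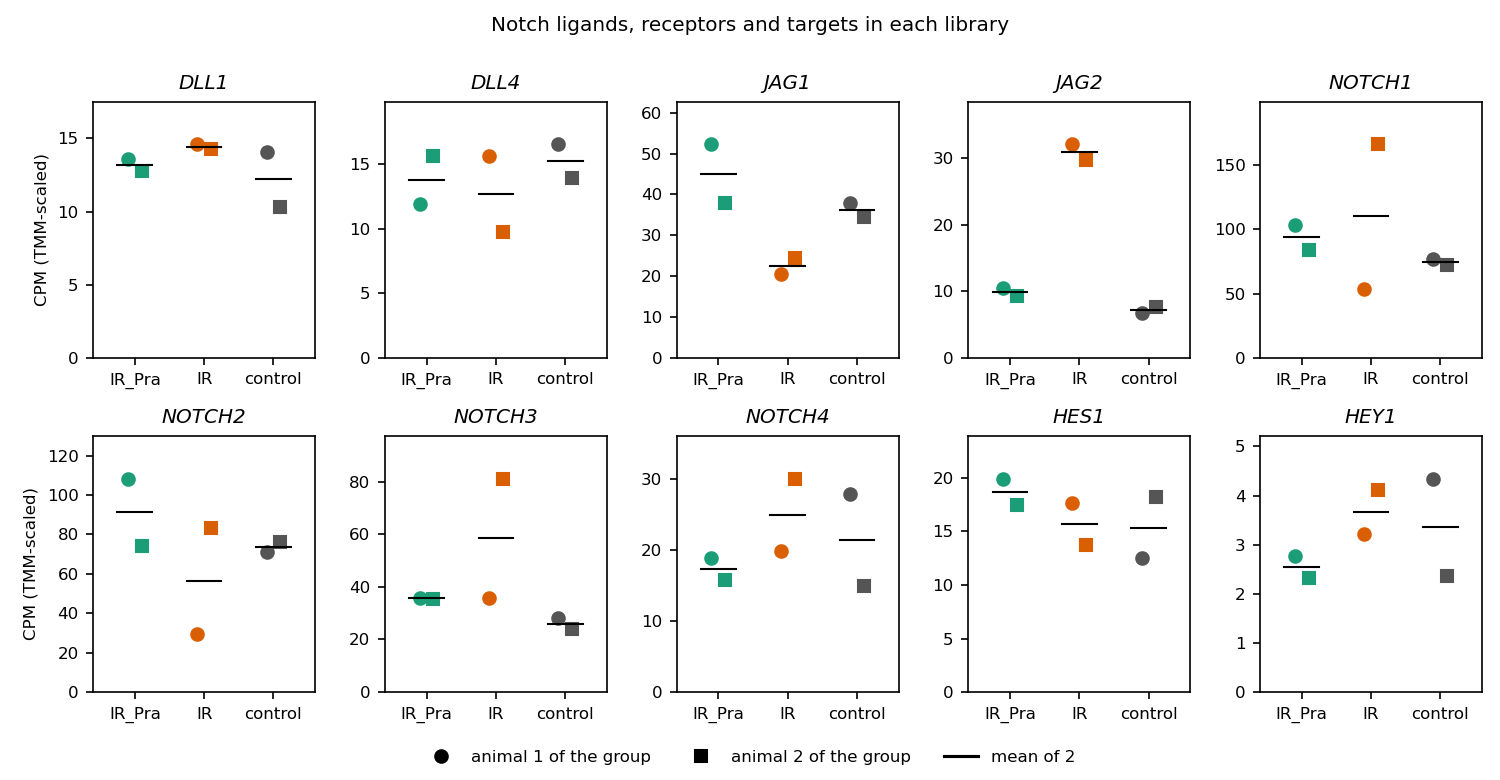
TMM-scaled CPM (vertical axes, from 0, a scale per gene) of the 10 Notch genes in each library, for IR_Pra, IR and control; circles and squares are the 2 animals of a group and lines their mean. JAG2 is near 31 CPM in both IR animals and under 11 CPM in the other 4, while NOTCH1, NOTCH2 and NOTCH3 differ widely between the 2 IR animals.

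The ligand JAG2 rose in irradiated intestine. JAG2 is a transmembrane ligand of the Jagged family, and its gene (Entrez 100522743) lies on an unplaced scaffold of Sscrofa11.1. It had 10.5 and 9.25 CPM in the IR_Pra libraries, 32.1 and 29.8 CPM in the IR libraries, and 6.75 and 7.64 CPM in the control libraries. The IR libraries were high and lay apart from both other groups, and the IR_Pra libraries lay just above the control ones. IR averaged 30.9 ± 1.69 CPM and control 7.19 ± 0.625 CPM (SD, n = 2 each), a 4.3-fold difference with a log2 fold change of 2.1 ± 0.25 (SE, edgeR quasi-likelihood test, adjusted p = 0.0359). It was the 1 of the 10 Notch genes past the threshold of an adjusted p under 0.05 in IR vs control, where 6.06% of all genes tested passed, 3.39% as higher and 2.68% as lower. An unadjusted p under 0.05 was found for 3 of the 10 (JAG2, NOTCH3 and JAG1), where 30.2% of all genes had one. The JAG2 log2 fold change did not rest on 1 IR animal: it was 2.04 without IR 1 and 2.16 without IR 2. Without any 1 control or IR_Pra library the call was lost, as was every other call in this comparison. The log2 fold change was then 2.06 without control 1, 2.27 without control 2 and 2.16 without either IR_Pra library. The call held in 12 of 19 alternatives, with log2 fold changes from 1.54 to 2.32. These 12 include both fits with 1 IR animal, whose p-values are not read. With 2 animals in each group, adjusted p ran from 1.72e-11 (DESeq2) to 0.0995 (edgeR, only the 4 libraries of the comparison).

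JAG1, the other Jagged ligand (Entrez 100156773, chromosome 17, 19591248 to 19629659), was lowest in IR, where JAG2 was highest. Its levels were 52.3 and 37.9 CPM in IR_Pra, 20.5 and 24.5 CPM in IR, and 38.0 and 34.6 CPM in control. Both IR libraries lay below the other 4, and the IR_Pra and control libraries overlapped. The log2 fold change of -0.69 ± 0.26 in IR vs control did not pass (adjusted p = 0.142).

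DLL1 (Entrez 100620481, chromosome 1, 198815 to 211346), a ligand of crypt secretory cells in the mouse, varied little. It had 13.6 and 12.8 CPM in IR_Pra, 14.6 and 14.3 CPM in IR, and 14.1 and 10.3 CPM in control, and its log2 fold change in IR vs control was 0.24 ± 0.27 (adjusted p = 0.576). Over the 6 libraries its log2 CPM spanned 0.5, and 94.1% of all genes tested spanned more. DLL4 (Entrez 100152163, chromosome 1, 130376720 to 130386411), a ligand of mouse crypt cells and of endothelium, had 11.9 and 15.6 CPM in IR_Pra, 15.6 and 9.75 CPM in IR, and 16.5 and 13.9 CPM in control. These groups overlapped in every comparison, and the log2 fold change in IR vs control was -0.26 ± 0.33 (adjusted p = 0.629).

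The makeup of the ligand pool differed more than its size. Summed over the 4 ligands, the level was 19.4 and 16.7 FPKM in IR_Pra, 16.1 and 17.8 FPKM in IR, and 16.1 and 14.0 FPKM in control. JAG2 made up 12.8% and 12.0% of that sum in IR_Pra, 36.3% and 38.3% in IR, and 8.79% and 11.5% in control. JAG1 made up 48.5% and 39.5% in IR_Pra, 18.7% and 23.7% in IR, and 39.4% and 42.3% in control. JAG2 thus exceeded JAG1 in both IR libraries, with FPKM ratios of JAG2 to JAG1 of 1.94 and 1.62, against 0.265 and 0.305 in IR_Pra and 0.223 and 0.271 in control. A ratio within a library does not depend on how libraries are scaled, and it is given as a description with no test. An exact permutation test of 2 animals against 2 cannot give a two-sided p under 0.333.

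**Figure D2:**
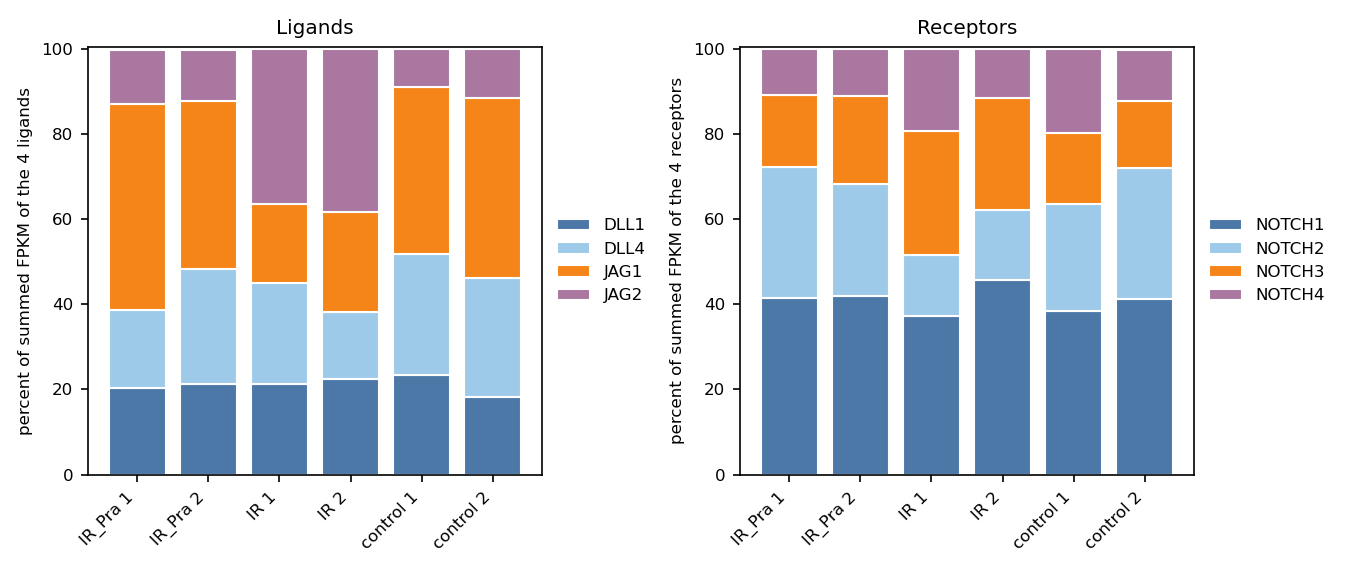
Share (percent, vertical axis) of each ligand in the summed FPKM of the 4 ligands (left) and of each receptor in that of the 4 receptors (right), in each of the 6 libraries. JAG2 is 36.3% and 38.3% of the ligand sum in the IR libraries and at most 12.8% in the others, and NOTCH2 is 14.4% and 16.3% of the receptor sum in IR and at least 25.2% in the others.

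The receptors split the 2 IR animals. NOTCH1 (Entrez 110258061, unplaced scaffold), the main receptor of mouse crypt progenitors with NOTCH2, had 103.1 and 84.2 CPM in IR_Pra, 53.8 and 166 CPM in IR, and 76.9 and 72.3 CPM in control. IR 1 lay below every other library and IR 2 above every other one. The log2 fold change in IR vs control was 0.56 ± 0.51 (edgeR adjusted p = 0.492). It was 1.15 without IR 1 and -0.47 without IR 2, so its direction depended on which IR animal was used.

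NOTCH2 (Entrez 100153369, chromosome 4, 100951522 to 101152348) had 108 and 74.2 CPM in IR_Pra, 29.3 and 83.3 CPM in IR, and 70.9 and 76.0 CPM in control. Only the low value of IR 1 lay outside the range of the IR_Pra and control libraries. Its log2 fold change in IR vs control was -0.38 ± 0.5 (edgeR adjusted p = 0.633), 0.18 without IR 1 and -1.33 without IR 2.

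NOTCH3 (Entrez 102158881, chromosome 2, 62364507 to 62402348), the receptor of vascular mural cells, had 36.0 and 35.2 CPM in IR_Pra, 35.7 and 81.3 CPM in IR, and 28.2 and 23.8 CPM in control. Both IR libraries lay above both control libraries, but IR 1 was level with IR_Pra and only IR 2 was far above. The log2 fold change in IR vs control was 1.17 ± 0.4 and did not pass (adjusted p = 0.123). It was 1.64 without IR 1 and 0.45 without IR 2. With the length trend of each library removed it was 1.45 ± 0.28 (edgeR adjusted p = 0.0497). NOTCH4 (Entrez 100144522, chromosome 7, 24231293 to 24256281), an endothelial receptor, had 18.9 and 15.7 CPM in IR_Pra, 19.8 and 30.0 CPM in IR, and 27.9 and 14.8 CPM in control, with a log2 fold change in IR vs control of 0.22 ± 0.39 (adjusted p = 0.729). The annotated spans of NOTCH2, NOTCH3 and NOTCH4 each overlap another gene, and the use of strand in counting is not given, so reads shared with those genes cannot be told apart. JAG2 and NOTCH1, on unplaced scaffolds, were not compared for such overlap.

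Receptor totals differed between the IR animals, and receptor shares did so less. The 4 receptors summed to 26.7 and 21.0 FPKM in IR_Pra, 12.6 and 37.6 FPKM in IR, and 20.0 and 17.9 FPKM in control, so the IR libraries were the lowest and the highest. NOTCH3 made up 17.0% and 20.6% of the sum in IR_Pra, 29.0% and 26.3% in IR, and 16.6% and 15.9% in control. NOTCH2 made up 30.9% and 26.3% in IR_Pra, 14.4% and 16.3% in IR, and 25.2% and 30.8% in control. The FPKM ratio of NOTCH3 to NOTCH2 was 2.02 and 1.61 in the IR libraries, against 0.548 and 0.786 in IR_Pra and 0.659 and 0.517 in control.

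By the length implied by counts and FPKM, as a median over libraries, the receptor transcripts are among the longest. They came to 9932 nt for NOTCH1, 13978 nt for NOTCH2, 8466 nt for NOTCH3 and 7024 nt for NOTCH4. All lie within the longest 2 of the 10 classes. In IR 1 the log2 ratio to the control mean was -0.47 for NOTCH1, -1.33 for NOTCH2, 0.46 for NOTCH3 and -0.04 for NOTCH4, and in IR 2 it was 1.15, 0.18, 1.65 and 0.56 in the same order. With the length trend removed, the log2 fold change in IR vs control was 0.83 for NOTCH1, -0.06 for NOTCH2, -0.41 for JAG1 and 2.32 for JAG2 (adjusted p = 0.0404 for JAG2). The part of the length trend in the difference between the IR animals was not tested.

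**Figure D3:**
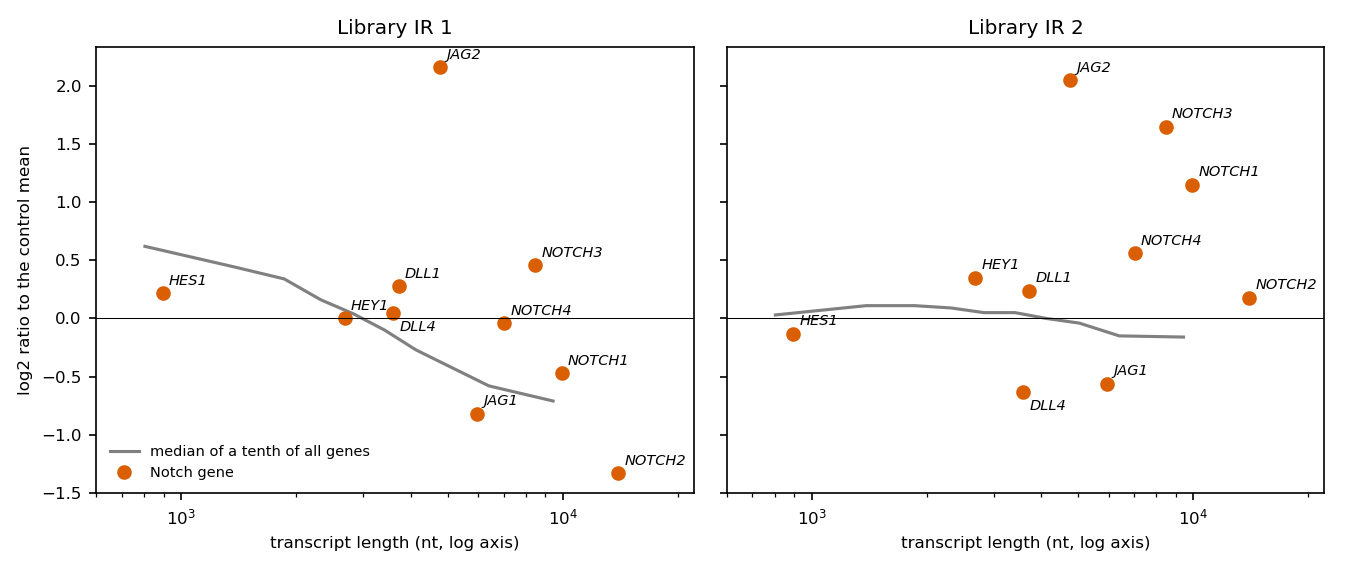
Log2 ratio to the control mean (vertical axis) against transcript length in nt, as implied by counts and FPKM (horizontal log axis). Points are the Notch genes, and the grey line is all genes as the median of each of 10 equal classes by length. Library IR 1 is on the left and IR 2 on the right. The grey line runs from 0.62 to -0.71 in IR 1 and from 0.03 to -0.16 in IR 2, and JAG2 lies far above it in both.

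Neither target passed the test in any comparison. HES1 (Entrez 100499567, chromosome 13, 131135970 to 131137865), the repressor that keeps crypt progenitors from secretory fates in the mouse, had 20.0 and 17.5 CPM in IR_Pra, 17.6 and 13.8 CPM in IR, and 12.5 and 18.2 CPM in control. The groups overlapped, and the log2 fold change in IR vs control was 0.03 ± 0.3 (adjusted p = 0.953), a value whose sign turned under other scalings. HEY1 (Entrez 100157952, chromosome 4, 56859640 to 56863807), a target prominent in vessels, had 2.76 and 2.33 CPM in IR_Pra, 3.21 and 4.11 CPM in IR, and 4.35 and 2.37 CPM in control, with a log2 fold change in IR vs control of 0.13 ± 0.43 (adjusted p = 0.868). These p-values do not show that the targets stayed the same.

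In IR vs control the groups did not overlap for 4 of the 10 Notch genes (DLL1, JAG2 and NOTCH3 higher, JAG1 lower), where 59.8% of all genes did not overlap (29.8% higher and 30% lower). The median log2 fold change of the 10 was 0.17, and that of all genes tested was 0.03.

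IR_Pra against IR asks how irradiated intestine differed with pravastatin. JAG2 averaged 9.88 ± 0.889 CPM in IR_Pra and 30.9 ± 1.69 CPM in IR (SD, n = 2 each), a log2 fold change of -1.65 ± 0.25 that did not pass with all libraries (edgeR adjusted p = 0.0754). Of the alternatives that kept 2 animals in each group, it passed an adjusted p under 0.05 in DESeq2 alone (adjusted p = 4.32e-07). The JAG2 log2 fold change was -1.59 without IR 1 and -1.7 without IR 2. JAG1 averaged 45.1 ± 10.1 CPM in IR_Pra and 22.5 ± 2.82 CPM in IR (SD, n = 2 each), a log2 fold change of 1.0 ± 0.26 (edgeR adjusted p = 0.105; DESeq2 adjusted p = 0.0165).

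By edgeR 0 of the 10 passed in IR_Pra vs IR, where 0.0055% of all genes (1 gene) did. DESeq2 called 2 of the 10 (JAG1 and JAG2), where it called 15.9% of all genes. The same 2 had an unadjusted edgeR p under 0.05, where 24.5% of all genes had one. Neither count stands apart from the share over all genes. The groups did not overlap for 5 of the 10 (JAG1 higher; DLL1, JAG2, NOTCH4 and HEY1 lower), where 53.9% of all genes did not (27.3% higher and 26.6% lower). The other log2 fold changes were -0.13 ± 0.27 for DLL1, 0.12 ± 0.33 for DLL4, -0.23 ± 0.51 for NOTCH1, 0.7 ± 0.5 for NOTCH2, -0.72 ± 0.4 for NOTCH3, -0.53 ± 0.39 for NOTCH4, 0.25 ± 0.3 for HES1 and -0.53 ± 0.43 for HEY1. The receptor values again turned on 1 animal: without IR 1, NOTCH1 (-0.82) and NOTCH3 (-1.19) passed as lower, and without IR 2, NOTCH2 passed as higher (1.64) and NOTCH3 was 0. In those fits 19.7% of all genes passed without IR 1 and 12.4% without IR 2. This comparison shares its IR libraries with IR vs control, so opposite signs in the 2 are not separate evidence. The median log2 fold change of the 10 was -0.18, and that of all genes tested was -0.02.

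IR_Pra against control gave no call among the 10 (edgeR, DESeq2 and limma voom each 0, and 0 with an unadjusted edgeR p under 0.05). Of all genes 0% passed by edgeR, 0.396% passed by DESeq2 and 3.42% had an unadjusted p under 0.05. JAG2 was 9.88 ± 0.889 CPM in IR_Pra and 7.19 ± 0.625 CPM in control (SD, n = 2 each), a log2 fold change of 0.46 ± 0.24. The groups did not overlap for 3 of the 10 (JAG2, NOTCH1 and NOTCH3, all higher in IR_Pra), where 40.8% of all genes did not (20.8% higher and 20% lower). Fold changes of the 10 spanned -0.4 to 0.46 on the log2 scale with a median of 0.3, and the median of all genes was 0.

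**Figure D4:**
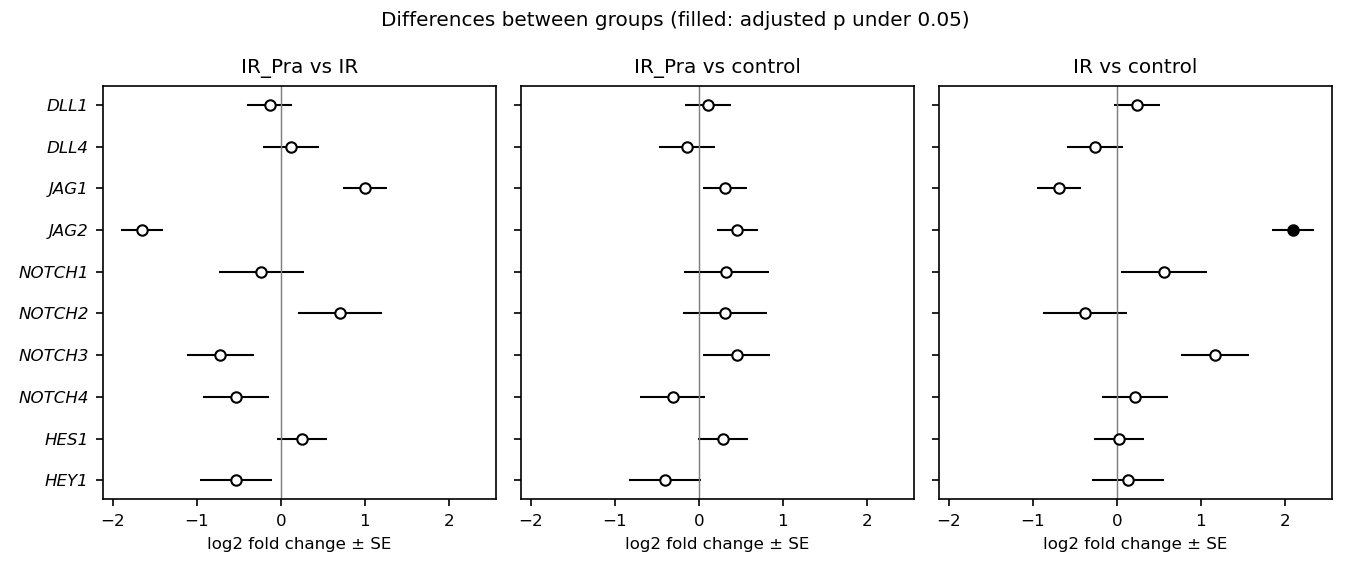
Log2 fold change with its SE (horizontal axes) of the 10 Notch genes in IR_Pra vs IR, IR_Pra vs control and IR vs control, from the edgeR fit of all 6 libraries; filled points have an adjusted p under 0.05. The 1 filled point is JAG2 in IR vs control, and the longest error bars are those of NOTCH1 and NOTCH2.

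Marker levels of many cell types differed between the groups together with these genes. Beside the marker counts given below, 3.39% of all genes passed as higher in IR vs control and 2.68% as lower. Smooth muscle markers summed to 20290 and 13830 CPM in IR_Pra, 32400 and 68510 CPM in IR, and 5890 and 12130 CPM in control, with 1 of 8 past the threshold as higher in IR vs control. Fibroblast markers summed to 6850 and 4642 CPM in IR_Pra, 7921 and 24600 CPM in IR, and 1825 and 3135 CPM in control, with 0 of 6 past it. B cell markers summed to 140 and 356 CPM in IR_Pra, 17.9 and 17.1 CPM in IR, and 426 and 253 CPM in control, with 6 of 7 past it as lower. The sums of these 3 lists did not overlap between IR and control.

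Levels of 6 mural cell markers summed to 340.5 and 279 CPM in IR_Pra, 418 and 1015 CPM in IR, and 210 and 255 CPM in control, and 0 of the 6 passed in IR vs control. NOTCH3 per 1000 CPM of mural markers was 106 and 126 in IR_Pra, 85.4 and 80.1 in IR, and 135 and 93.6 in control. Relative to these markers NOTCH3 was lower in both IR libraries than in the other 4. This was not particular to NOTCH3: every other Notch gene but JAG2, which overlapped, was lower in IR than in control by this ratio. Relative to markers of macrophages and of enteric neurons and glia NOTCH3 was lower in IR than in control as well. Relative to epithelial markers it was higher, and relative to endothelial markers it overlapped.

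The 12 endothelial markers summed to 404 and 369 CPM in IR_Pra, 576 and 653 CPM in IR, and 418 and 275 CPM in control, and 1 of the 12 (EGFL7) passed as higher in IR vs control. DLL4 per 1000 CPM of endothelial markers was 29.6 and 42.3 in IR_Pra, 27.2 and 14.9 in IR, and 39.5 and 50.4 in control. NOTCH4 per 1000 CPM of the same markers was 46.7 and 42.6 in IR_Pra, 34.3 and 46.0 in IR, and 66.7 and 54.0 in control. Both ratios were lower in each IR library than in each control library. The same held for DLL1, JAG1, NOTCH2 and HEY1, while NOTCH1, NOTCH3 and HES1 overlapped and JAG2 was higher. The marker sum itself was higher in both IR libraries than in control, and its part in these ratios was not tested. No share over all genes is given for such ratios.

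JAG2 per 1000 CPM of endothelial markers was 26.0 and 25.1 in IR_Pra, 55.8 and 45.6 in IR, and 16.2 and 27.8 in control, so it stayed higher in IR. Relative to the epithelial markers it was 1.21 and 1.3 in IR_Pra, 4.57 and 19.0 in IR, and 0.885 and 0.885 in control, higher in both IR libraries as well. Relative to mural markers it was 30.8 and 33.1 in IR_Pra, 76.9 and 29.3 in IR, and 32.2 and 30.0 in control, and these groups overlapped. Markers of enteric neurons and glia summed to 59.4 and 58.7 CPM in IR_Pra, 151 and 290 CPM in IR, and 44.8 and 54.3 CPM in control, with 2 of 8 past the threshold as higher in IR vs control, and JAG2 relative to them overlapped between IR and control as well. Macrophage markers summed to 1194 and 1812 CPM in IR_Pra, 3462 and 3658 CPM in IR, and 710 and 721 CPM in control, with 5 of 6 past the threshold as higher in IR vs control. Per 1000 CPM of macrophage markers JAG2 was 8.8 and 5.1 in IR_Pra, 9.28 and 8.13 in IR, and 9.5 and 10.6 in control, so relative to these it was lower in both IR libraries than in control. No marker of these lists was at 0 counts in any library. No Notch gene was set against the smooth muscle or fibroblast markers, whose sums were also higher in both IR libraries than in control. The part of each cell type in the JAG2 and NOTCH3 differences was not tested.

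The wider pathway was read from 59 other genes, of which 57 were tested. The ligand-like DLK1 and the target HES5 had 6 and 5 counts over all 6 libraries and were too low. In IR vs control 3 of the 57 passed, 1 higher and 2 lower, where 6.06% of all genes passed, and 17 of the 57 had an unadjusted p under 0.05 (7 higher, 10 lower), where 30.2% of all genes had one. Both counts were close to the share over all genes. Their median log2 fold change was -0.21, where that of all genes was 0.03. The count was 15 of the 57 without IR 1, where 28.3% of all genes passed, 14 without IR 2, where 17.5% did, and 0 without any 1 of the other 4 libraries, where 0 of all genes passed as well.

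Of 7 tested relatives of HES1 and HEY1 and feedback targets, 1 rose in IR vs control, where 3.39% of all genes passed as higher. This was HES6, an HES family member that counteracts HES1 in mouse neural cells. HES6 had 11.3 and 13.0 CPM in IR_Pra, 22.1 and 40.4 CPM in IR, and 9.35 and 9.7 CPM in control (log2 fold change 1.71 ± 0.35, adjusted p = 0.0489). Both IR libraries lay above the other 4. HES2 was next by p (0.96 ± 0.53, adjusted p = 0.273), and the list's median was 0.82.

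Of 5 factors of the secretory lineages, 2 fell in IR vs control, where 2.68% of all genes passed as lower. ATOH1, the switch to secretory fate, had 34.7 and 24.7 CPM in IR_Pra, 12.7 and 8.32 CPM in IR, and 39.6 and 30.3 CPM in control (log2 fold change -1.73 ± 0.34, adjusted p = 0.0463). NEUROD1, a factor of hormone-secreting cells, had 1.45 and 1.84 CPM in IR_Pra, 0.687 and 0.185 CPM in IR, and 4.26 and 4.67 CPM in control (-3.38 ± 0.66, adjusted p = 0.0472). Beside this, the epithelial marker sum was 7038 CPM in IR 1 and 1562 CPM in IR 2, against 7634 and 8624 CPM in control, and 0 of its 10 genes passed in IR vs control; goblet cell markers summed to 14360 CPM in IR 1 and 1506 CPM in IR 2, against 11460 and 7965 CPM in control. The part of either in these falls was not tested. The other 3 factors did not pass: NEUROG3, the factor that starts the hormone cell lineage, differed by 1.06 ± 0.72, SPDEF, a goblet and Paneth cell factor, by 0.21 ± 0.65, and GFI1, a secretory cell repressor, by -0.49 ± 0.31. The list's median was -0.49. The calls of HES6, ATOH1 and NEUROD1 were lost without any 1 IR_Pra or control library. HES6 also missed the threshold in limma voom (adjusted p = 0.0597) and with the length trend removed (adjusted p = 0.0715). HES6 passed in 5 of 19 alternatives, ATOH1 in 9 of 19 and NEUROD1 in 9 of 18, each with the same direction in all. The alternatives counted include the fits with 1 IR animal, whose p-values are not read.

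None of the 8 genes of the nuclear activation complex passed in IR vs control, and all 8 had negative log2 fold changes with a median of -0.89. Of all 18197 genes tested, 8858 had negative ones, with a median of 0.03. CREBBP, a histone acetyltransferase that the complex recruits, averaged 58.9 ± 25.2 CPM in IR and 153.6 ± 6.65 CPM in control (-1.38 ± 0.34, adjusted p = 0.0638). KAT2B, another acetyltransferase, averaged 24.2 ± 4.83 CPM in IR and 48.7 ± 1.13 CPM in control (-1.01 ± 0.25, adjusted p = 0.0649; SD, n = 2 each). RBPJ itself differed by -0.2 ± 0.25. With 1 IR animal left in the fit, the median of the 8 was -0.53 without IR 1 and -1.21 without IR 2. All 8 were negative in both fits. Of these transcripts 7 are 5899 nt or longer and SNW1 is 2275 nt. With the length trend removed 7 of the 8 stayed negative with a median of -0.57, and 0 passed.

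Genes that act on the receptor or ligand protein gave no call in IR vs control. Among 9 proteases and their subunits, ADAM10, which makes the first ligand-induced cut of the receptor, had 50.9 and 26.7 CPM in IR_Pra, 2.88 and 12.6 CPM in IR, and 37.0 and 34.2 CPM in control (-2.2 ± 0.7, adjusted p = 0.106). Its span overlaps 2 annotated pseudogenes. Spans of other pathway genes named here, RFNG, LFNG, DTX3L, NEURL1 and DLK2 among them, overlap protein-coding genes. PSEN2, a catalytic subunit of gamma-secretase, differed by 0.84 ± 0.26 (adjusted p = 0.101), and the median of the 9 was -0.44. Of 5 sugar transferases that modify receptors, RFNG (1.09 ± 0.28, adjusted p = 0.0698) and LFNG (1.12 ± 0.42, adjusted p = 0.144) had the smallest p, and the median was 0.36.

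Of 9 genes of receptor turnover, NUMBL, a relative of the Notch inhibitor NUMB, averaged 30.2 ± 4.92 CPM in IR and 7.32 ± 2.94 CPM in control (SD, n = 2 each) and came closest to the threshold (2.04 ± 0.42, adjusted p = 0.0501). DTX3L, a ubiquitin ligase of the Deltex family, differed by -1.58 ± 0.36 (adjusted p = 0.0589), and the list's median was -0.21. Among the 4 ligases that act on ligands the smallest p were those of MIB1 (-0.55 ± 0.28) and NEURL1 (-0.41 ± 0.23), with a median of -0.08. Of 7 corepressors, SPEN differed by -1.17 ± 0.31 (adjusted p = 0.0755) and CTBP1 by 0.47 ± 0.24 (adjusted p = 0.239), with a median of -0.24. Of 3 tested other ligands and ligand-like proteins, DNER differed by 1.5 ± 0.44 (adjusted p = 0.0887) and DLK2 by -0.85 ± 0.71 (adjusted p = 0.458), with a median of -0.07.

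**Figure D5:**
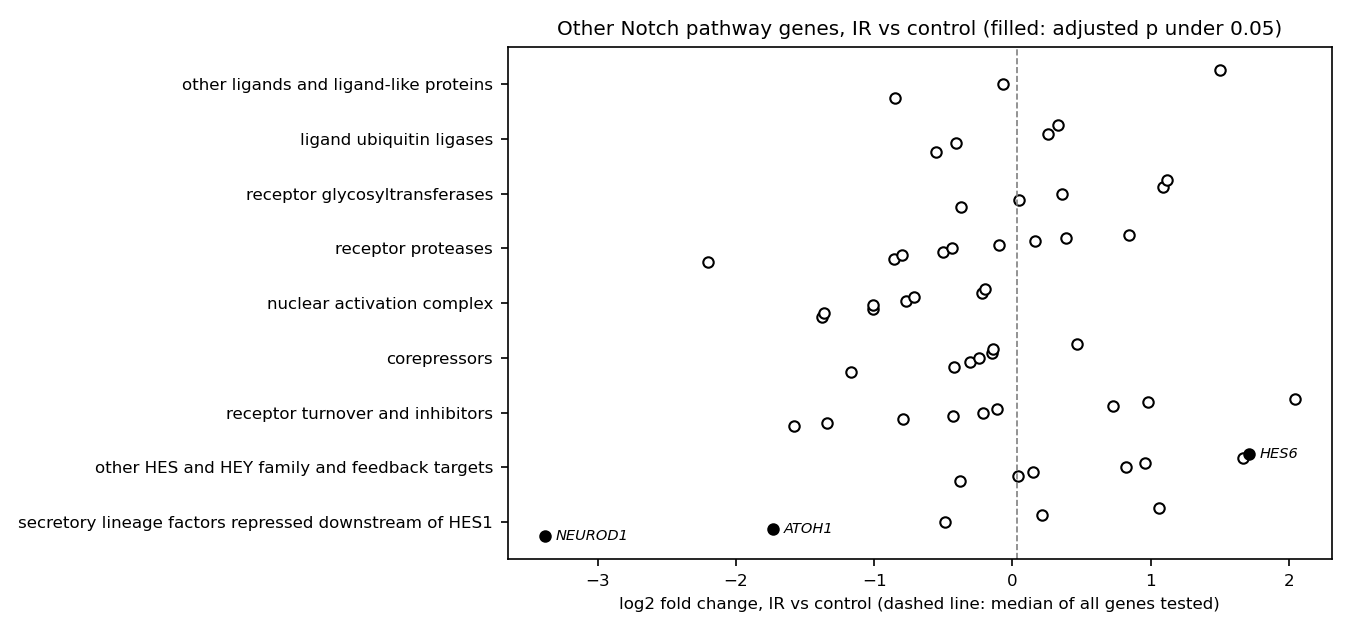
Log2 fold change in IR vs control (horizontal axis) of the 57 other Notch pathway genes tested, in rows by their role; filled points have an adjusted p under 0.05 and the dashed line is the median of all genes tested, 0.03. HES6 is filled on the right and ATOH1 and NEUROD1 on the left, and all 8 genes of the nuclear activation complex lie left of the line.

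In IR_Pra vs IR 0 of the 57 passed by edgeR and 14 passed by DESeq2, where DESeq2 called 15.9% of all genes. An unadjusted edgeR p under 0.05 was found for 15 of the 57 (9 higher, 6 lower), close to the 24.5% of all genes. ATOH1 differed by 1.5 ± 0.33 (edgeR adjusted p = 0.0921) and HES6 by -1.36 ± 0.34 (edgeR adjusted p = 0.102). In IR_Pra vs control 0 of the 57 passed by edgeR or DESeq2, and 0 had an unadjusted p under 0.05.

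Genes most like JAG2 across the 6 libraries were named by the root mean square difference of centred log2 CPM among 13439 genes. They were HSPB2 (difference 0.093), CRIP2 (0.0933) and C6H1orf122 (0.141), whose log2 fold changes in IR vs control were 2.09, 1.93 and 2.08. Those most like NOTCH3 were ESYT1 (0.0771), MORC4 (0.0951) and WWC3 (0.104), and those most like JAG1 were STT3B (0.0674), KIAA1468 (0.0759) and PNRC2 (0.0762). With 6 libraries such likeness is a description.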

How the data were processed

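The deposited table gives, per the file headers, whole-number read counts and FPKM per gene and library. The authors' FPKM values are scaled to transcript length and to the library's fragments. The submitters' processing notes name bcl2fastq 2.20.0, Trimmomatic, HISAT2 2.1.0 and StringTie 2.1.3b; the counting step and its use of strand are not given in the sources used here. Gene coordinates are those of Sscrofa11.1.

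Counts were tested with edgeR 4.0.16 (R 4.3.3): TMM scaling, filterByExpr by group, a quasi-likelihood fit of 1 term per group to all 6 libraries (3 residual degrees of freedom, common biological coefficient of variation 0.431), and Benjamini-Hochberg adjustment over 18197 genes. The 24 rows without a gene name, at most 0.0385% of a library, were left out. A transcript length per gene was computed from the deposited counts, library totals and FPKM, as the median over libraries. Trends with this length were removed with a loess offset (span 0.5). DESeq2 1.42.0 and limma 3.58.1 served as alternatives. The test was also run on simulated counts with the same spread for all genes and no length trend, a simpler setting than these data. With 2 animals per group, p-values rest on a spread shared by all groups.

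The 10 genes and all lists were chosen with earlier results of these data known. All 10 are named, with the pathway genes past the threshold, the 2 smallest p in IR vs control of each list, and the 3 genes most like JAG2, NOTCH3 and JAG1. RBPJ, SNW1, NEUROG3, SPDEF and GFI1 were added after their values were seen.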

Additional observations from a re-analysis of the deposited data

How the results depend on the processing

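In IR vs control 1103 genes and 1 of the 10 Notch genes passed. The count of genes was 3452 at an adjusted p under 0.1, 4131 with DESeq2, 403 and 543 with limma on log2(FPKM + 1) and log2(FPKM + 0.1), 475 with library size alone (182 higher and 293 lower, against 616 and 487), and 0 with only the 4 libraries of the comparison; leaving out 1 library gave 0 to 5342. The count of Notch genes was 2 with the length trend removed, 0 with only those 4 libraries, and 0 to 3 with 1 library left out. In IR_Pra vs IR, where 1 gene passed, the count was 1328 at an adjusted p under 0.1, 2885 with DESeq2, 0 with limma voom, 10 with log2(FPKM + 0.1), 2 with library size alone, 2 without a filter, 0 with 4 libraries and 0 to 3728 with 1 library left out; Notch genes numbered 1 at an adjusted p under 0.1, 2 with DESeq2 and 0 to 3 with 1 library left out. In IR_Pra vs control DESeq2 called 72 genes, where edgeR called 0. Counts with 1 library left out come from fits in which 1 group holds 1 animal, and are not read as calls.

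A replicate block gave 0 genes and 0 Notch genes in IR vs control and 0 genes in IR_Pra vs IR, with and without the length correction (JAG2 adjusted p = 0.0777, and 0.0833 with it, in IR vs control). The labels number the replicates and state no pairing of animals. The correlations of same-numbered deviations were 0.081 in IR vs control, -0.091 in IR_Pra vs IR and -0.11 in IR_Pra vs control, over 2 pairs each. With so few pairs these values can neither show nor exclude pairing or a shared batch.

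Signs turned for HES1 in IR vs control (-0.04 and -0.04 on both FPKM scales, -0.08 with library size alone, -0.2 with the length trend removed, -0.19 with the replicate block as well), for DLL1 in IR_Pra vs IR (0.01 and 0.02 on the FPKM scales, 0.03 with library size alone) and for NOTCH1 there (0.1 and 0.13 on the FPKM scales). Library size alone and log2(FPKM + 0.1) moved the median of all genes in IR_Pra vs IR to 0.14 and 0.16. With 1 library left out, log2 fold changes in IR vs control spanned -0.64 to 0.04 for DLL4, -0.47 to 1.15 for NOTCH1, -1.33 to 0.18 for NOTCH2, -0.11 to 0.77 for NOTCH4, -0.17 to 0.41 for HES1 and -0.18 to 0.66 for HEY1; in IR_Pra vs IR they spanned -0.18 to 0.5 for DLL4 and -0.82 to 0.8 for NOTCH1; and in IR_Pra vs control -0.09 to 0.33 for DLL1, -0.35 to 0.03 for DLL4, -0.68 to 0.2 for NOTCH4 and -0.76 to 0.08 for HEY1. The cause was not tested. Of the alternatives for single Notch genes, 523 kept direction and side of the threshold, 11 gained the call, 7 lost it and 26 turned direction; HEY1 was not tested under the filter of 5 CPM. The 3 other pathway genes called in IR vs control became 0 to 15, a check added after seeing the data, as was an older edgeR fit (JAG2 kept its call).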

Other observations

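Among the 10 Notch genes, the pair most alike across the 6 libraries was NOTCH4 and HEY1, with a root mean square difference of centred log2 CPM of 0.0848. This measure is small for any genes that vary little, and log2 CPM spanned 1.01 for NOTCH4 and 0.89 for HEY1. The next closest pair of the 45, DLL1 and HEY1, differed by 0.265. JAG2 was least like NOTCH2 (1.31) and JAG1 (1.29). The values of 1 pair over 6 libraries are a description.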
